A study of Homo sapiens with 15 samples.

Results

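The respiratory chain and ATP synthase form the machinery of oxidative phosphorylation in the inner mitochondrial membrane. Complex I and complex II take electrons from NADH and succinate, complex III passes them through cytochrome c to complex IV, cytochrome c oxidase, and complex V, ATP synthase, uses the resulting proton gradient to make ATP. Most subunits are encoded in the nucleus and imported, and dedicated assembly factors insert cofactors and join the parts.

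Transcripts of this machinery were followed in the human lung adenocarcinoma line H1975 on 15 Human Gene 2.0 ST arrays. After a night without serum all cells were given 50 ng/ml epidermal growth factor (EGF), and none of the arrays analysed here holds unstimulated cells. RNA was taken at 0.5 h (2 arrays), at 1, 2, 4, 6, 8, 12 and 18 h (1 array each), and at 24 h and 48 h (3 arrays each). The 18 h array was used as labelled, although the protocol text does not list that time. Time after EGF and time without serum run together, and all values come from 1 cell line. Members were the genes whose platform symbol starts with NDUFA, NDUFB, NDUFC, NDUFS, NDUFV, UQCR, COX4, COX5, COX6, COX7, COX8, ATP5 or SDH. This rule gave 36 probe sets and 34 genes, of the 14675 genes measured under a name.

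These members do not cover the 5 complexes evenly. Complex IV was represented by 17 subunit genes and complex III by 5 subunit genes and the pseudogene UQCRBP1. Complex V was represented by 2 small membrane subunits, ATP5MJ and ATP5MK, and by ATP5IF1, the inhibitor of ATP hydrolysis. No subunit of complex I or complex II was among the members. Complex I entered through the assembly factors NDUFAF7 and NDUFAF8 and through the noncoding transcripts NDUFA6-DT and NDUFB2-AS1, and complex II through the 4 assembly factors SDHAF1, SDHAF2, SDHAF3 and SDHAF4. Together there were 24 subunit genes, 6 assembly factors, 1 inhibitor, 2 noncoding transcripts and 1 pseudogene. Of the 13 subunits encoded in mitochondrial DNA, 0 were measured under a name here.

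Levels are SCAN scores, a log-type scale that is standardised within each array, so a change in score is a change relative to the rest of the same array. Differences are given in SCAN units as the later minus the earlier time, with the standard error (SE) of limma, and no fold change is given because 1 unit is not a stated fold. A gene was called at a Benjamini-Hochberg adjusted p under 0.05 over all 14675 genes. Where arrays of a gene are said to lie apart between times, the share of all genes that did the same was not counted. Scores of different probe sets are not read as relative amounts of RNA. They serve to call a signal high or near 0, or to place it above or below a median. In bulk RNA, fewer cells of a type and less RNA per cell cannot be told apart. Nothing in the labels says that arrays of the same time came from separate cultures, so the p-values measure only the spread between these arrays, and the small number of arrays limits the precision.

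Of 8 lung epithelial markers, 7 were measured, and EPCAM (2.09 to 2.24) and KRT18 (2.83 to 2.97) were high on every array. Of the markers of other cell types, CD14 (blood, -0.020 to 0.17), DCN (fibroblast, -0.13 to -0.079), LUM (fibroblast, -0.025 to 0.17) and VWF (endothelium, -0.086 to 0.031) were measured and scored near 0. The mean of the epithelial markers lay between 1.57 and 1.65 on early arrays (0.5 to 2 h), between 1.60 and 1.64 on middle arrays (4 to 12 h) and between 1.71 and 1.86 on late arrays (18 to 48 h). The 7 markers did not move alike: NAPSA ranged from 0.50 to 1.97 and KRT8 from 0.72 to 0.88. From 0.5 h to 48 h, 4 were called higher and 1 lower, beside 15.5% and 13.1% of all genes. The rise of the mean ran alongside the late changes below, and its part in them was not tested.

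Promoter sequences are shown first for members called lower in the late than in the middle window. All 5 called differences of members between those windows were falls (14.7% of members), beside 10.2% of all genes called lower. RefSeq promoters (GRCh38.p14) were matched for 28 of the 34 members, and for 4 of these 5, the exception being UQCRHL. Each line runs 5′ to 3′ from 150 bases before to 30 bases after the start of transcription, and capitals mark matches to motifs of nuclear factors known for mitochondrial genes.
SDHAF3, chr7:97117548-97117727 (+): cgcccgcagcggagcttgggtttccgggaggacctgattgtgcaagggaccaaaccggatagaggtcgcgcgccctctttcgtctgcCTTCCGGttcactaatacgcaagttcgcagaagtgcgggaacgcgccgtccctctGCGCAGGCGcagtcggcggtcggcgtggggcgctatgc
NDUFAF8, chr17:81239161-81239340 (+): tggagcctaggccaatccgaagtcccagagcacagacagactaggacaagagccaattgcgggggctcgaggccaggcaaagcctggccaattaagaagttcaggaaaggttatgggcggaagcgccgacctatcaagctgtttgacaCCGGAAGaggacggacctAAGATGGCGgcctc
NDUFAF7, chr2:37231508-37231687 (+): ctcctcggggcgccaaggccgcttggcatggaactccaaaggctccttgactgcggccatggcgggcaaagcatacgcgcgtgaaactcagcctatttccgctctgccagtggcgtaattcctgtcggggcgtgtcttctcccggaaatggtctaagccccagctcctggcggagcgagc
COX8A, chr11:63974470-63974649 (+): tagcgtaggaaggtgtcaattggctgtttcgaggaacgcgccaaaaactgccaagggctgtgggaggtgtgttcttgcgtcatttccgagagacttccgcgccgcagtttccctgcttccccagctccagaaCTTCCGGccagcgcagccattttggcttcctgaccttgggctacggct

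In the SDHAF3 line the capitals mark an ETS word on the opposite strand (CTTCCGG) and an NRF1 word, in the NDUFAF8 line an ETS word (CCGGAAG) and a YY1 word, and in the COX8A line an ETS word on the opposite strand. The NDUFAF7 line holds none of these letters. NDUFAF8 has 3 listed starts, and the second is printed. The window of the first start holds none of the words searched, and that of the third holds an ETS and a YY1 word. Both strands of the full windows, from 250 bases before to 50 after each start, were searched for 4 words, and a gene was counted where any of its windows matched. The NRF1 word GCGCANGCG was in 6 of 28 members (21.4%) and in 12.9% of the 10707 genes with a promoter, and the ETS word CCGGAAG in 10 members (35.7%) and 17.1% of genes. The YY1 word AAGATGGCG was in 3 members (10.7%) and 3.33% of genes, and the E-box CACGTG in 1 member (3.57%) and 11.1% of genes. A match is a description of letters and not a site, and the windows with no match say only that these letters are not there.

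Among the assembly factors of complex II, the measurements singled out SDHAF3, which helps the maturation of the iron-sulfur subunit SDHB. Its scores were 1.46 and 1.5 at 0.5 h, 1.47 at 1 h, 1.58 at 2 h, 1.57 at 4 h, 1.45 at 6 h, 1.49 at 8 h, 1.34 at 12 h, 1.21 at 18 h, 1.18, 1.31 and 1.26 at 24 h, and 1.14, 1.21 and 1.12 at 48 h. All arrays up to 12 h lay above all later arrays. SDHAF3 fell by 0.23 ± 0.038 from 0.5 h to 24 h (limma adjusted p = 2.7e-04), and by 0.33 ± 0.038 from 0.5 h to 48 h (limma adjusted p = 2.1e-06). The step from 24 h to 48 h was -0.096 ± 0.034 and did not pass (limma adjusted p = 0.072). Between the middle and the late window it fell by 0.26 ± 0.040 (limma adjusted p = 1.6e-04), and it had the widest course of all members, with time means spanning 0.427. The calls of SDHAF3 held without any 1 of the 15 arrays.

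The other complex II factors had no called difference in any comparison. SDHAF1, which helps iron-sulfur clusters into SDHB, scored between -0.081 and 0.086, with a difference of 0.067 ± 0.037 from 0.5 h to 48 h. SDHAF2, which helps the cofactor FAD attach to SDHA, scored between 1.15 and 1.29, with a difference of -0.045 ± 0.030. SDHAF4, which holds flavinylated SDHA before it meets SDHB, scored between 0.34 and 0.50, with a difference of -0.026 ± 0.034. At 48 h, 1 of the 4 factors stood above its 0.5 h mean.

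Of the 2 complex I factors, NDUFAF8, a partner that stabilises the assembly factor NDUFAF5, had the clearer course. It scored 0.81 and 0.80 at 0.5 h, 0.92 at 1 h, 0.88 at 2 h, 0.90 at 4 h, 0.82 at 6 h, 0.89 at 8 h, 0.81 at 12 h and 0.67 at 18 h. The scores were 0.69, 0.74 and 0.71 at 24 h and 0.69, 0.67 and 0.68 at 48 h. Arrays to 12 h and arrays from 18 h did not overlap. The share of all genes with such a split was not counted, here or for SDHAF3. From 0.5 h to 48 h NDUFAF8 fell by 0.13 ± 0.030 (limma adjusted p = 0.0032), and from the middle to the late window by 0.16 ± 0.025 (limma adjusted p = 2.2e-04). These calls held without any 1 array. The fall of 0.096 ± 0.030 from 0.5 h to 24 h (limma adjusted p = 0.0306) was lost without either 0.5 h array or without 24 h replicate 1 or 3, where the adjusted p reached 0.168.

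NDUFAF7, a methyltransferase that acts in complex I assembly, was called only between the windows. It scored 1.16, 1.10, 1.17 and 1.07 on the middle arrays, and between 1.00 and 1.08 on the 7 late arrays, so the windows overlapped. The fall of 0.077 ± 0.023 (limma adjusted p = 0.0248) was lost on leaving out the 4 h array, the 8 h array or 48 h replicate 2, where the adjusted p reached 0.109. It also ended with the 4 h array counted as early and the 12 h array as late, with replicate 1 alone and without the 48 h arrays (adjusted p up to 0.152). The noncoding transcripts NDUFA6-DT, which is read away from NDUFA6, and NDUFB2-AS1, antisense to NDUFB2, were not called, at -0.033 ± 0.031 and -0.024 ± 0.037 from 0.5 h to 48 h.

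**Figure D1:**
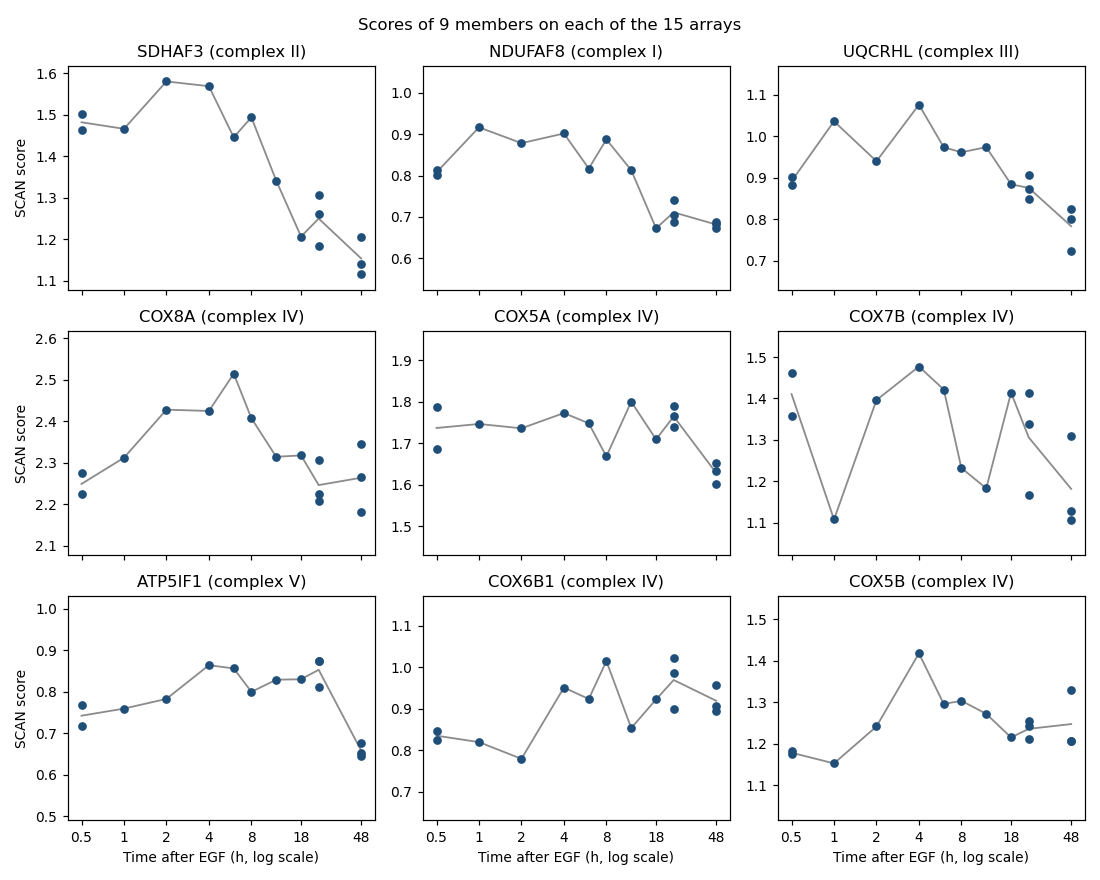
SCAN scores (vertical axes, each spanning 0.54 units) of 9 members against hours after EGF on a log axis, with 1 point for each of the 15 arrays and a line through the mean of each time. SDHAF3 and NDUFAF8 lie lower on all arrays from 18 h on than on all arrays up to 12 h, and ATP5IF1 and COX5A are lowest on the 3 arrays of 48 h.

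In complex III, the only called difference between times or windows belonged to UQCRHL, an intronless copy of the hinge protein gene UQCRH. UQCRHL scored 0.90 and 0.88 at 0.5 h, 1.04 at 1 h, 0.94 at 2 h, 1.08 at 4 h, 0.97 at 6 h, 0.96 at 8 h, 0.97 at 12 h, 0.88 at 18 h, 0.85, 0.87 and 0.91 at 24 h, and 0.83, 0.80 and 0.72 at 48 h. Middle arrays lay above all late arrays, and the 48 h arrays were the lowest of the course. UQCRHL fell by 0.16 ± 0.035 from the middle to the late window (limma adjusted p = 0.0030) without depending on any 1 array. When the 4 h array was counted as early and the 12 h array as late, or with replicate 1 alone, that call ended, and the adjusted p reached 0.228. The fall of 0.11 ± 0.034 from 0.5 h to 48 h (limma adjusted p = 0.0219) was lost without either 0.5 h array or without 48 h replicate 3 (adjusted p up to 0.133). UQCRH itself scored between 0.16 and 0.35 and was not called (-0.064 ± 0.040 from 0.5 h to 48 h). The copies are nearly identical in sequence, so the signals of their probe sets may share transcripts.

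The core subunits UQCRC1 and UQCRC2 scored from 1.46 to 1.61 and from 2.67 to 2.83. Their time means spanned 0.138 and 0.141, beside a median of 0.146 over all genes. UQCRC1 was lowest at 48 h (1.47, 1.49 and 1.46), but its difference of -0.072 ± 0.026 from 24 h did not pass (limma adjusted p = 0.0865). Both were called in the spline test of the time course, which asks for any smooth change and gives no direction (limma adjusted p = 0.0394 for UQCRC1 and 0.0161 for UQCRC2). The UQCRC1 call depended on each of 9 arrays (0.5 h replicate 1, 1, 4, 8 and 18 h, 24 h replicate 2 and each 48 h array), and the adjusted p reached 0.145 when they were left out singly. The UQCRC2 call ended on leaving out the array of 1 h or that of 4 h, where the adjusted p reached 0.0782, and with a spline of 2 degrees of freedom or in hours (adjusted p up to 0.156). UQCRB, which binds ubiquinone, and its pseudogene UQCRBP1 had no called difference.

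In complex IV, 3 of 17 subunits (17.6%) were called from 0.5 h to 48 h, all 3 as lower, beside 28.6% of all genes called (13.1% lower and 15.5% higher). Called or not, 9 of the 17 differences lay below 0. COX7B had the largest of these differences, at -0.23 ± 0.061 (limma adjusted p = 0.0086), but an uneven course. Its scores were 1.36 and 1.46 at 0.5 h, 1.11 at 1 h, 1.40 at 2 h, 1.48 at 4 h, 1.42 at 6 h, 1.23 at 8 h, 1.18 at 12 h, 1.41 at 18 h, 1.34, 1.17 and 1.41 at 24 h, and 1.13, 1.31 and 1.11 at 48 h. The single 1 h array was as low as the lowest 48 h array, and without 0.5 h replicate 3 the call was lost (adjusted p = 0.127).

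COX7A2, the common isoform of subunit 7A, was higher on the arrays of 0.5 h and 1 h than on all later ones. It scored 1.40 and 1.45 at 0.5 h, 1.45 at 1 h and between 1.23 and 1.34 on all arrays from 2 h on. The fall was 0.12 ± 0.033 both to 24 h (limma adjusted p = 0.0157) and to 48 h (limma adjusted p = 0.0104). Without 0.5 h replicate 3 both calls were lost (adjusted p of 0.160 and 0.123), and the first was also lost without 24 h replicate 2. COX7A1, the heart and muscle isoform, was below the median of all probe sets on all 15 arrays and was not called.

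COX5A, a subunit on the matrix side of the enzyme, scored 1.76, 1.74 and 1.79 at 24 h and 1.60, 1.63 and 1.65 at 48 h. The 48 h arrays lay below the other 12 arrays, which ranged from 1.67 to 1.80. COX5A fell by 0.14 ± 0.031 from 24 h to 48 h (limma adjusted p = 0.0053), and this call held without any 1 array. The fall of 0.11 ± 0.034 from 0.5 h to 48 h (limma adjusted p = 0.0229) was lost without 0.5 h replicate 1 or 48 h replicate 1 (adjusted p up to 0.354).

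COX8A, the common isoform of subunit 8, was highest in the middle of the course. It scored 2.27 and 2.22 at 0.5 h, 2.31 at 1 h, 2.43 at 2 h, 2.42 at 4 h, 2.51 at 6 h, 2.41 at 8 h, 2.31 at 12 h, 2.32 at 18 h, 2.22, 2.31 and 2.21 at 24 h, and 2.18, 2.27 and 2.34 at 48 h. The middle and late windows overlapped. COX8A fell by 0.15 ± 0.041 between them (limma adjusted p = 0.0121), which ended without the 6 h array (adjusted p = 0.0685). It was also called in the spline test, which gives no direction (limma adjusted p = 2.8e-04), and that call held without any 1 array. From 0.5 h to 48 h its difference was 0.015 ± 0.042, which did not pass (limma adjusted p = 0.839). COX8C, the testis isoform, scored near 0 throughout and was not called.

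COX6B1 and COX5B of complex IV were called higher at 24 h and in the middle window, respectively, but not from 0.5 h to 48 h. COX6B1, the common isoform of subunit 6B, scored 0.82 and 0.85 at 0.5 h and 0.90, 0.99 and 1.02 at 24 h. It rose by 0.13 ± 0.036 (limma adjusted p = 0.0143), but without either 0.5 h array or without 24 h replicate 3 the call ended (adjusted p up to 0.118). The COX6B1 difference from 0.5 h to 48 h, 0.084 ± 0.036, did not pass (limma adjusted p = 0.0936). COX5B, the zinc-binding subunit, scored 1.17, 1.18, 1.15 and 1.24 on early arrays and 1.42, 1.30, 1.30 and 1.27 on middle arrays. It rose by 0.13 ± 0.033 (limma adjusted p = 0.0446), a call that held only without the 2 h array, the 12 h array or 48 h replicate 3 and ended on leaving out any single one of the other 12, where the adjusted p reached 0.145. It also ended after quantile normalisation (adjusted p = 0.0847), median centring (0.0764), a variance trend (0.0561), moved windows (0.927) and with replicate 1 alone (0.134). From the middle to the late window the COX5B difference of -0.084 ± 0.029 did not pass (limma adjusted p = 0.0503), but it was called after median centring. From 0.5 h to 48 h COX5B differed by 0.069 ± 0.036 (limma adjusted p = 0.177).

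The remaining subunits of complex IV were not called in any comparison. COX4I1, the common isoform of the regulatory subunit, stayed between 3.03 and 3.21, and COX6A1 between 3.38 and 3.48. COX6C (0.50 to 0.64), COX7C (1.23 to 1.40) and COX7A2L (0.96 to 1.05), the last also known as a factor of supercomplexes, had differences of -0.070 ± 0.029, 0.048 ± 0.031 and 0.051 ± 0.031 from 0.5 h to 48 h. COX4I2, a hypoxia-induced lung isoform, COX6A2 of heart and muscle, and COX7B2 of testis lay below the median of all probe sets on all arrays, as COX7A1 did. These 4 members stand beside 26.8% of all genes that did so, and COX6B2 and COX8C lay below it on 13 arrays each.

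In complex V, ATP5IF1 first rose and then fell. It scored 0.72 and 0.77 at 0.5 h, 0.76 at 1 h, 0.78 at 2 h, 0.86 at 4 h, 0.86 at 6 h, 0.80 at 8 h, 0.83 at 12 h, 0.83 at 18 h, 0.87, 0.81 and 0.87 at 24 h, and 0.65, 0.68 and 0.65 at 48 h. The 48 h arrays lay below the other 12. ATP5IF1 rose by 0.11 ± 0.032 from 0.5 h to 24 h (limma adjusted p = 0.0211), which was lost without 0.5 h replicate 1 or 24 h replicate 1 or 3 (adjusted p up to 0.214). It then fell by 0.19 ± 0.028 to 48 h (limma adjusted p = 9.3e-05), and this call held without any 1 array. Between 0.5 h and 48 h the difference of -0.084 ± 0.032 did not pass (limma adjusted p = 0.0557).

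The small membrane subunits ATP5MJ and ATP5MK were each called once. ATP5MJ scored 1.40 and 1.41 at 0.5 h and 1.51, 1.5 and 1.51 at 24 h, a rise of 0.097 ± 0.033 (limma adjusted p = 0.0499). This call was lost without any 1 of 6 arrays, those of 0.5 h and 24 h and 48 h replicate 1 (adjusted p up to 0.211), and after median centring. ATP5MK scored 1.29 and 1.33 at 0.5 h and 1.39, 1.45 and 1.37 at 48 h, a rise of 0.097 ± 0.034 (limma adjusted p = 0.041), lost without either 0.5 h array or without 48 h replicate 1 or 2 (adjusted p up to 0.273). For both subunits the groups of 2 and 3 arrays did not overlap, and the share of all genes that did the same was not counted.

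Counted over all members, the share called lay near or below that of all genes, apart from the early to middle comparison with its single call. From 0.5 h to 24 h, 6 of 34 members were called (17.6%), beside 17.2% of all genes. Of these 3 were higher at 24 h (ATP5IF1, COX6B1 and ATP5MJ), beside 9.96% of all genes, and 3 were lower (SDHAF3, COX7A2 and NDUFAF8), beside 7.26%. From 24 h to 48 h, 2 members were called, ATP5IF1 and COX5A, both lower, which was 5.88% beside 12.9% of all genes (6.19% higher and 6.68% lower), while 9 members had an unadjusted p under 0.05. From 0.5 h to 48 h, 7 were called (20.6%), beside 28.6% of all genes. The 6 lower members were SDHAF3, NDUFAF8, COX7B, COX7A2, UQCRHL and COX5A, beside 13.1% of all genes, and the 1 higher member was ATP5MK, beside 15.5%. These 3 comparisons share arrays and are not independent.

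From the early to the middle window, 1 member (2.94%), COX5B, was called as higher, beside 1.58% of all genes called, 0.94% higher and 0.641% lower, and 8 had an unadjusted p under 0.05. From the middle to the late window, 5 members were called (14.7%), beside 19.1% of all genes. All 5 were lower late (SDHAF3, NDUFAF8, UQCRHL, COX8A and NDUFAF7), beside 10.2% of all genes lower and 8.95% higher. The SE of window comparisons can be too small, since arrays of the same time count there as independent. The spline test called 11 members (32.4%), beside 33.9% of all genes. The calls of SDHAF3, NDUFAF8, UQCRHL, COX8A and ATP5IF1 held there without any 1 array. Those of UQCRC1, UQCRC2, COX5A, COX5B, COX6B1 and COX7A2 did not. Over all 6 tests 15 members were called at least once and 19 never.

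**Figure D2:**
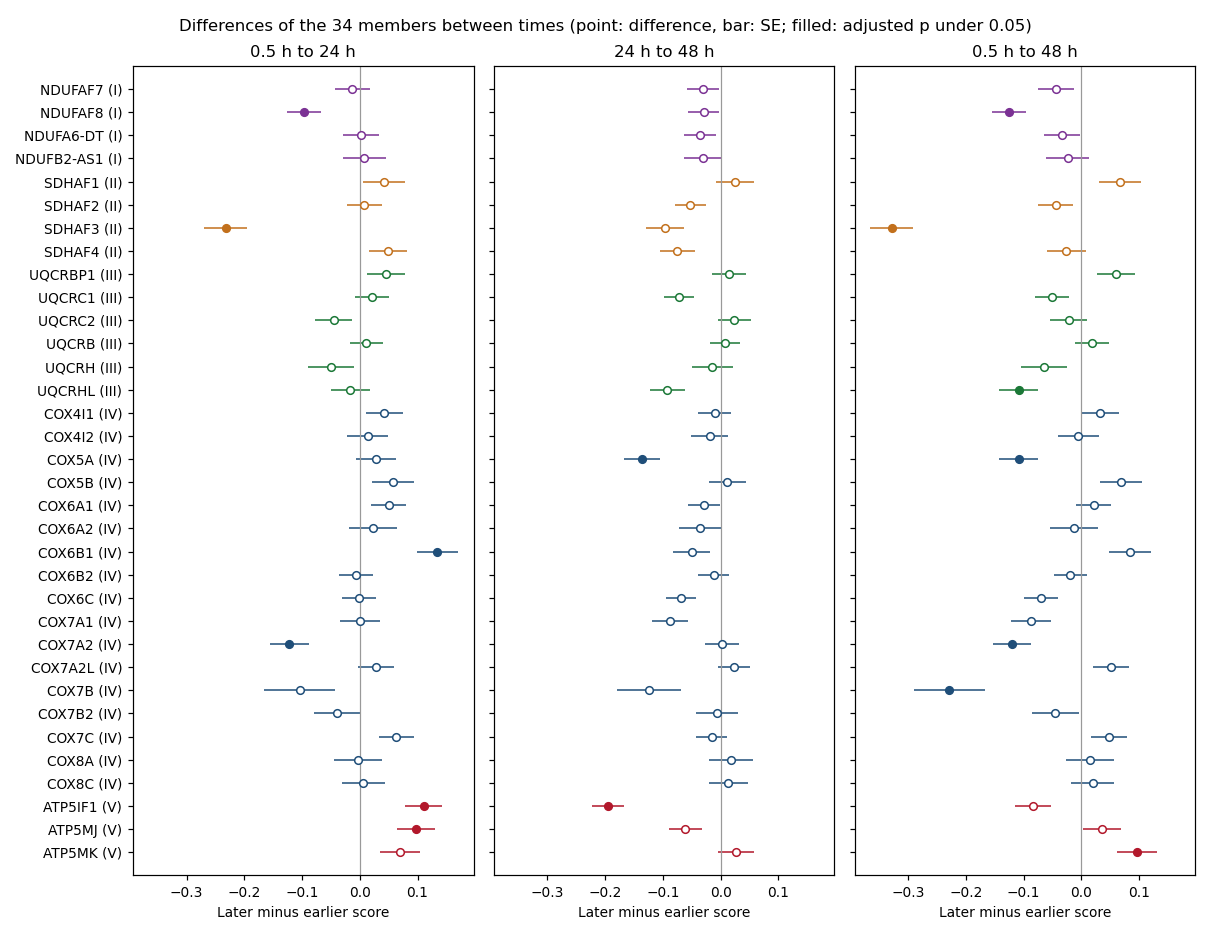
Difference in SCAN score of the 34 members between 0.5 h and 24 h, 24 h and 48 h, and 0.5 h and 48 h (horizontal axes, later minus earlier), with bars for 1 SE, colours for complexes I to V and filled points for an adjusted p under 0.05. Filled points number 6, 2 and 7 in the 3 panels, and SDHAF3 lies farthest to the left at -0.33 in the last.

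The median member of each complex was followed over the 10 times as its difference from the 0.5 h mean. At 4 h, a single array, the medians were 0.023 in complex I, 0.041 in complex II, 0.081 in complex III, 0.043 in complex IV and 0.12 in complex V, beside 0.011 over all genes. All 6 members of complex III and all 3 of complex V stood above their 0.5 h mean there. So did 25 of the 34 members, beside 8371 of the 14675 genes. The high on this array was shared by the mitochondrial ribosomal proteins, with a median of 0.064 and 67 of 77 above 0.5 h. The median over the 34 members was 0.066. At 48 h the medians were -0.038, -0.035, -0.036, -0.0056 and 0.036 in the same order, beside 0.0013 over all genes, and 13 of 34 members stood above 0.5 h. With only the members whose mean score was above the median of all genes, the complex IV median at 48 h had the opposite sign, 0.021. The complex I median was then -0.085, the midpoint of NDUFAF7 (-0.043) and NDUFAF8 (-0.126). The complex II median was -0.187, the midpoint of SDHAF2 (-0.045) and SDHAF3 (-0.328). With subunits alone complex V was at 0.067. With all members counted, complex V alone had a median above 0 at each time after 0.5 h, with 3 members behind it. The 11 complex IV members above the median of all probe sets on every array also had one, lowest at 0.011 (2 h). These medians rest on few members and were not tested.

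**Figure D3:**
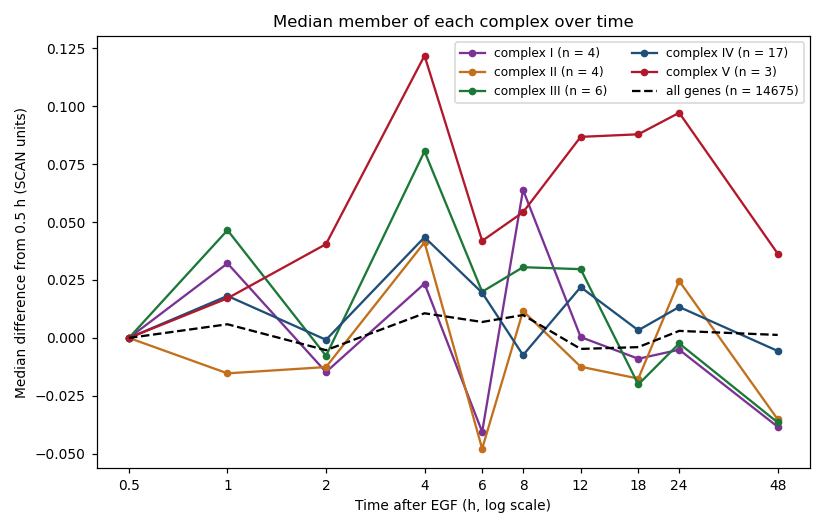
Median difference in SCAN score from 0.5 h (vertical axis) over the members of complexes I to V and over all 14675 genes (dashed), against hours after EGF on a log axis. The 4 h point, a single array, has the highest median in complexes II, III, IV and V, with 0.12 in complex V, and all genes stay near 0.

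Other genes of the pathway were taken from lists outside the symbol rule. Of the 20 measured factors for assembly of cytochrome c oxidase (24 listed), 4 were called higher and 3 lower at 48 h than at 0.5 h (35%, beside 28.6% of all genes). Among them the copper-site factor COA6 fell by 0.16 ± 0.035 and CMC2 by 0.22 ± 0.035, while COA5 rose by 0.18 ± 0.031. Of 14 measured factors for assembly of complexes I, III and V (16 listed), 1 was called higher and 4 lower (35.7%, beside 28.6% of all genes). The lower ones included UQCC2, which acts on cytochrome b (-0.28 ± 0.030, limma adjusted p = 1.2e-06), FOXRED1 of complex I (-0.13 ± 0.037) and ECSIT of complex I (-0.13 ± 0.036). Of 4 measured electron carriers (14 listed), 1 was called higher and 1 lower (50%, beside 28.6% of all genes). CYC1, the cytochrome c1 subunit of complex III that the symbol rule leaves out, fell by 0.23 ± 0.035 (limma adjusted p = 5.3e-05). ETFDH, which feeds electrons from fat oxidation to ubiquinone, rose by 0.16 ± 0.031.

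Mitochondrial ribosomal proteins, which translate the subunits encoded in mitochondrial DNA, were called mostly as lower. Of 77 measured, 24 were lower and 3 higher at 48 h than at 0.5 h (35.1% called, beside 28.6% of all genes), with a median of -0.048. From the middle to the late window 29 were lower and 2 higher (40.3% called, beside 19.1% of all genes), with a median of -0.063 beside -0.022 over the 34 members and -0.0011 over all genes. MRPL58 fell by 0.25 ± 0.030, while MRPS25 rose by 0.24 ± 0.030 and MRPL14 by 0.21 ± 0.038.

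Fuel pathways gave mixed counts. Of 10 measured genes of the citric acid cycle and pyruvate dehydrogenase (22 listed), 0 were called from 0.5 h to 48 h with limma, beside 28.6% of all genes. In the late window 2 were lower than in the middle window (20%), beside 19.1% of all genes called and 10.2% lower. These were DLAT (-0.14 ± 0.032) and DLD (-0.11 ± 0.032), both parts of pyruvate dehydrogenase, named after their values were seen. Of 9 measured glycolysis genes (18 listed), 2 were called higher and 4 lower at 48 h (66.7%, beside 28.6% of all genes, 15.5% higher and 13.1% lower). LDHA, which turns pyruvate into lactate, rose by 0.20 ± 0.035 and PGK1 by 0.14 ± 0.032, while HK2, a hexokinase, fell by 0.19 ± 0.032. Of 5 measured regulators of mitochondrial biogenesis (17 listed), 0 were called from 0.5 h to 48 h, beside 28.6% of all genes. ESRRA, a nuclear receptor named after its value was seen, was higher by 0.071 ± 0.022 in the late than in the middle window. It was the 1 regulator called there (20%), beside 19.1% of all genes called and 8.95% higher.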

How the data were processed

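The deposited values are a SCAN score per probe set, which the authors computed for each array alone with Single Channel Array Normalisation. The method corrects for probe GC content and works on a log scale, with no step between arrays. The authors used the manufacturer's annotation and left out arrays judged to be outliers. The sources used here give no SCAN version.

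Of 39937 probe sets with no missing value, 15426 had 1 symbol, none several and 24511 no name in the platform annotation. Current symbols were taken by gene identifier from the RefSeq table (GRCh38.p14). For each symbol the probe set with the highest mean over the 15 arrays was kept, giving 14675 genes, with no filter on dim probe sets. Fits used limma 3.58.1 (R 4.3.3), with two-sided moderated tests and Benjamini-Hochberg adjustment over all genes. Time as a 10-level factor left 5 residual degrees of freedom, and the 3 windows (4 early, 4 middle and 7 late arrays) left 12. For the whole course, an F test took the 3 coefficients of a cubic spline on log2 hours. The code was tested on simulated data. Alternatives covered normalisation between arrays, dim probe sets, the choice of probe set, variance trend, replicate number, windows, spline shape and leaving out each array.

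All members were counted. Named with values were the complex II factors, isoform pairs, the largest called differences from 0.5 h to 48 h in each complex, members called in another comparison, and up to 3 called genes of each list by that difference. Members and lists were chosen with earlier results of these data known.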

Additional observations from a re-analysis of the deposited data

How the results depend on the processing

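No call of a member turned its direction under any alternative. Changes in the members called under other settings included the following. From 24 h to 48 h, 2 of 34 members were called, beside 12.9% of all genes. Limiting the test to genes above the median of all gene means gave 6 of 22 members, beside 27.4% of the 7337 genes tested. A variance trend gave 4 of 34, beside 13.7% of all genes. From 0.5 h to 48 h, 7 members (beside 28.6% of all genes) became 10 after quantile normalisation (beside 28.9%), 9 lower and 1 higher. The added calls were ATP5IF1, COX4I1 and UQCRC2. Median centring gave 8 members there (beside 28.7%). Genes above the median of all gene means gave 9 of 22 members (beside 52.8% of those tested). The single early to middle call became 0 after quantile normalisation, after median centring, with a variance trend, with the 4 h array counted as early and the 12 h array as late, and with replicate 1 alone. From the middle to the late window, 5 (beside 19.1% of all genes) became 3 with the moved windows (beside 6.28%) and 3 with replicate 1 alone (beside 9.65%). The spline in hours called 7 members in place of 11, beside 31.8% of all genes in place of 33.9%. After quantile normalisation the spline test called 12 members, COX4I1 among them, beside 34.4% of all genes. Among genes above the median of all gene means it called 13 of 22 members, beside 60.7% of those tested. Leaving out each array in turn gave 2 to 6 members from 0.5 h to 24 h, 2 to 4 from 24 h to 48 h, 4 to 8 from 0.5 h to 48 h, 0 to 2 from the early to the middle window, 4 to 6 from the middle to the late window and 8 to 12 in the spline test. With brighter members alone, the complex medians at 48 h moved to -0.085 in complex I, -0.187 in complex II and 0.021 in complex IV. Only NDUFAF7 and NDUFAF8 stand behind the complex I value, and only SDHAF2 and SDHAF3 behind that of complex II. With subunits alone, the medians moved to -0.051 in complex III and 0.067 in complex V. The cause of these shifts was not tested.

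Over all genes, 232 were called from the early to the middle window, against 0 with the moved windows, 52 with replicate 1 alone and 124 with the replicate block. From the middle to the late window the 2806 calls became 921 with the moved windows and 1416 with replicate 1 alone. From 0.5 h to 24 h the lowest count with 1 array left out was 1472 of 2526. Median centring gave 1187 genes higher and 1335 lower from 0.5 h to 24 h, against 1461 and 1065 as deposited. From the early to the middle window it gave 94 higher and 127 lower and quantile normalisation 93 and 129, against 138 and 94.

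Arrays of the same replicate number did not deviate together (7 pairs, correlation of deviations -0.030 to 0.030), so the numbers were not taken to pair the samples. With the number as a replicate block, 5, 3 and 5 members were called from 0.5 h to 24 h, 24 h to 48 h and 0.5 h to 48 h, 1 and 5 between the windows, and 9 in the spline test. The block ended the calls of ATP5MJ from 0.5 h to 24 h (adjusted p = 0.125), of COX5A (0.0578) and ATP5MK (0.102) from 0.5 h to 48 h, of NDUFAF7 between the middle and late windows (0.0966), and of UQCRC1 (0.0835) and UQCRC2 (0.0602) in the spline test.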

Other observations

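The 34 members varied over the course about as much as other genes did. The range of their time means had a median of 0.150 (0.0857 to 0.427), beside 0.146 over all genes, and the pooled standard deviation between replicates had a median of 0.0367 beside 0.0351. The time of the highest mean was the single 4 h array for 11 members, beside 14.8% of all genes, and for 10 members beside 12.5% after centring each array on its median. At 48 h, 0 members had their highest mean, beside 15.4% of all genes, and 7 had their lowest, beside 14.02%. These counts carry no test.

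COX6A1, the common isoform of subunit 6A of cytochrome c oxidase, had a second probe set that scored between 0.090 and 0.31, against 3.38 to 3.48 for the set with the highest mean. Neither was called from 0.5 h to 48 h (-0.014 ± 0.047 and 0.021 ± 0.030, limma adjusted p = 0.870 and 0.667 over all probe sets).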
